A study of Mus musculus with 16 samples.

Results

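Oncostatin M receptor signalling through gp130 and STAT3 was followed through 10 genes in the mouse retina: the ligand genes Lif, Cntf and Fgf2, the receptor genes Osmr, Lifr, Il6st and Cntfr, the transcription factor gene Stat3, its inhibitor Socs3 and the glial filament gene Gfap. They are 10 of 17849 named genes on the array. Matching by gene name gave 17 probes of 25697, and 12 of them, standing for 8 genes, passed the filter for detection. RNA of retina from C57BL6 mice, an inbred laboratory strain left without genetic or drug intervention, was hybridised to single-colour Illumina BeadChips, which report a probe as the brightness of labelled RNA bound to beads. The groups were aged females and aged males (24 months) and young females and young males (3 months), with 4 arrays each. The title of male aged 1 says aged and its age label says 12 months. That array was kept in the aged group, and the called changes of Osmr and Socs3 are also given without it. Nothing in the labels states that each array is a separate animal. The p-values therefore measure only spread between these arrays, some of which may be technical, and the number of arrays limits the precision.

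Cytokines of the interleukin-6 family bind a receptor chain of their own and the shared chain gp130, encoded by Il6st. Janus kinases on these chains phosphorylate STAT3, which moves to the nucleus and turns on target genes, among them Socs3, whose product shuts the receptor down. In the retina, Müller glia and photoreceptors use this pathway when photoreceptors are stressed: LIF and CNTF protect photoreceptors, FGF2 is often made with them, and GFAP filaments fill Müller glia after injury.

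Arrays had mean intensities of 158 to 240, with 52.6% to 57% of probes detected, that is with a detection p-value under 0.05. Slides were read from the number that opens the code of each array in the labels. By that reading the arrays lay on 5 slides, of which slides 1 to 4 held more than 1 group. Replicates of a group correlated at 0.99 to 0.997. All 7 rod markers were measured, and their summed intensity was 57850 to 70350 in aged females, 60380 to 65980 in young females, 56800 to 62800 in aged males and 59160 to 65590 in young males. All 6 lens markers (crystallin genes, Mip and Lim2) were measured too. Their sums were 20010 to 52350 in aged females and 47510 to 53450 in young females. In males the sums were 40520 to 57470 in aged retina and 37540 to 54620 in young retina. Levels below are log2 normalised intensities, which are comparable between arrays for 1 probe and not between probes. Changes are log2 differences, aged minus young, with their standard error (SE) from the limma fit. Adjusted p-values are those of limma, corrected by Benjamini-Hochberg over the 15016 tested probes, with a threshold of 0.05. An offset of 16 intensity units was added before the logarithm, so changes of dim probes are understated.

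Osmr was higher in aged than in young retina of both sexes, and it was the member with the largest change. Socs3 was higher by a smaller amount, a change that passed the threshold only as the mean of both sexes. The other 6 genes that were tested did not pass in any aging comparison, with the Stat3 probes nearest to the threshold. Lif and Fgf2 were detected on no array. Of the 12 tested probes 1 passed in females (0.633% of all probes tested), 1 in males (0.992%) and 2 as the mean of both sexes (1.88%).

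Osmr, read by 1 probe (ILMN_2623280), encodes the receptor chain that binds oncostatin M beside gp130. Its level was 7.10, 7.13, 7.01 and 6.77 on the 4 aged female arrays, against 6.30, 6.26, 6.20 and 6.42 on the young female ones. In males it was 7.08, 6.92, 7.17 and 7.03 on aged arrays, against 6.51, 6.11, 6.03 and 6.36 on young ones. Every aged array of either sex thus lay above every young array, a pattern that 69 of the 15016 tested probes showed (0.46%). On the scale of the deposited signal the same probe ran from 96.8 to 127 units in aged females and 47.7 to 80.9 in young females, and from 96.6 to 130 in aged males and 40.5 to 79.2 in young males. The aged and young ranges of the unnormalised signal do not overlap in either sex. In bulk RNA, more cells of a type that makes Osmr and more Osmr RNA per cell cannot be told apart, here and for the genes that follow.

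Osmr averaged 7.00 ± 0.16 in aged females and 6.29 ± 0.10 in young females (SD, n = 4 each), a change of 0.71 (SE 0.11, 1.64-fold, limma adjusted p = 0.00266). It averaged 7.05 ± 0.11 in aged males and 6.25 ± 0.22 in young males (SD, n = 4 each), a change of 0.80 (SE 0.11, 1.74-fold, limma adjusted p = 0.00103). As the mean of both sexes the change was 0.75 (SE 0.08, 1.69-fold, limma adjusted p = 1.56e-05), the 16th smallest p of 15016. Osmr was thus among the probes with the clearest age difference in these retinas, by the spread between arrays. Female minus male levels differed by 0.04 at 3 months (limma adjusted p = 0.884) and by -0.05 at 24 months (limma adjusted p = 0.912). The age change in females minus that in males was -0.09, with a 95% interval of -0.41 to 0.23 (limma adjusted p = 0.87). A difference between the sexes of either sign within that interval is therefore not excluded.

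The Osmr change was present within slides as well as between them. With the slide as a block it was 0.65 in females (limma adjusted p = 0.0211), 0.82 in males (limma adjusted p = 0.00186) and 0.73 as the mean of both (limma adjusted p = 0.000183). Within slide 2 and slide 4, each with 1 female array of either age, aged exceeded young by 0.71 and 0.58. Within slide 1, with 1 male array of either age, of which the aged one is male aged 1 with the age label of 12 months, the difference was 0.57, and within slide 3, with 2 male arrays of either age, it was 0.85. Without male aged 1 the change was 0.78 in males (limma adjusted p = 0.00277) and 0.75 as the mean of both sexes (limma adjusted p = 8e-05).

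Socs3, the feedback inhibitor (1 probe, ILMN_2618176), had levels of 6.30, 6.12, 6.05 and 5.75 in aged females, against 5.51, 5.73, 5.62 and 5.93 in young females. It had 5.91, 5.93, 6.20 and 6.10 in aged males, against 5.73, 5.58, 5.64 and 5.70 in young males. The male ages did not overlap, as for 3.88% of tested probes, while female aged 4 lay below the highest young female. The means were 6.06 ± 0.23 in aged females and 5.70 ± 0.18 in young females, and 6.04 ± 0.14 in aged males and 5.66 ± 0.07 in young males (SD, n = 4 each). The change was 0.36 in females (SE 0.11, limma adjusted p = 0.294) and 0.37 in males (SE 0.11, limma adjusted p = 0.133), neither past the threshold. As the mean of both sexes it was 0.37 (SE 0.08, 1.29-fold, limma adjusted p = 0.0200), with 5 of 8 aged arrays above every young array. The age changes of the sexes differed by -0.01 (limma adjusted p = 0.983).

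The Socs3 call stood close to the threshold. With the slide as a fixed block it was 0.39 (limma adjusted p = 0.0267), and without male aged 1 it was 0.39 (limma adjusted p = 0.022). Leaving out male aged 3 ended it (0.34, limma adjusted p = 0.0503). Within slides, aged exceeded young by 0.54 on slide 2 and 0.13 on slide 4 in females, and by 0.18 on slide 1, where male aged 1 is the only aged male, and 0.39 on slide 3 in males. Socs3 was therefore higher with age on each slide that allowed the comparison, by amounts that varied.

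**Figure D1:**
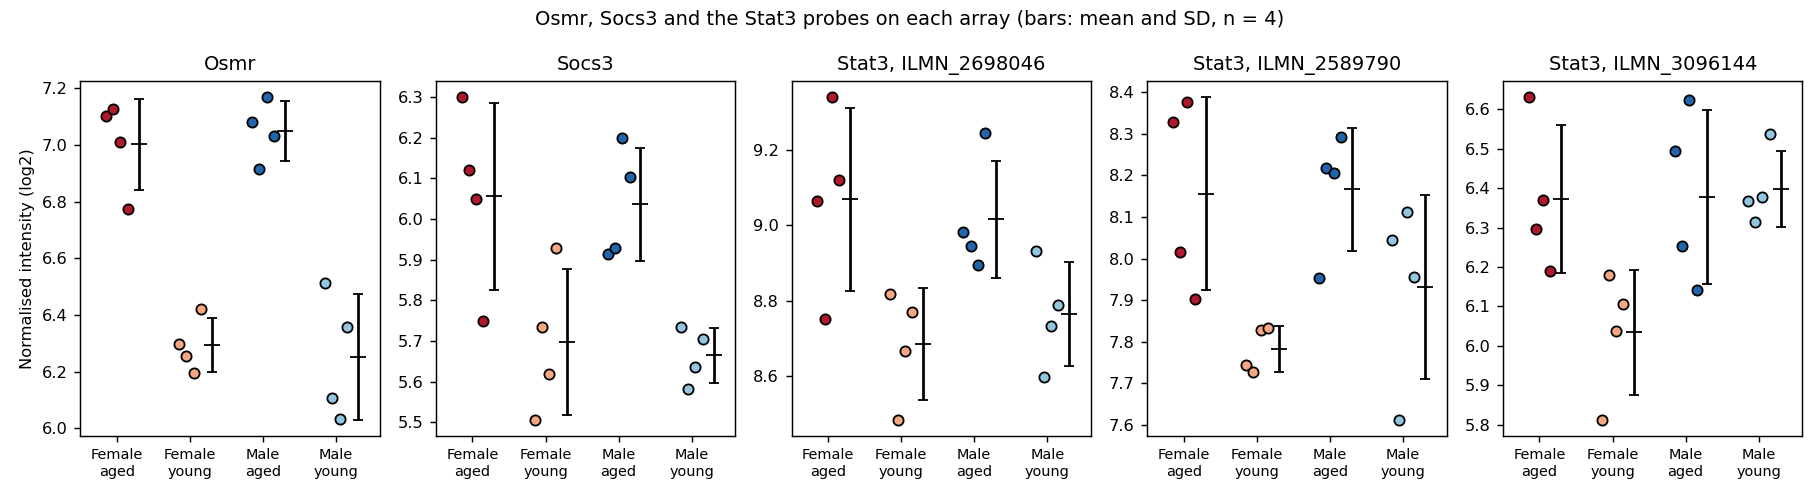
Log2 normalised intensity (vertical axes, each panel with its own range) of Osmr, Socs3 and the 3 Stat3 probes on each array, by group; bars show the mean and SD of 4 arrays. The 8 aged Osmr points, 6.77 to 7.17, lie above the 8 young ones, 6.03 to 6.51, while the groups of the Stat3 probes overlap in males.

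**Figure D2:**
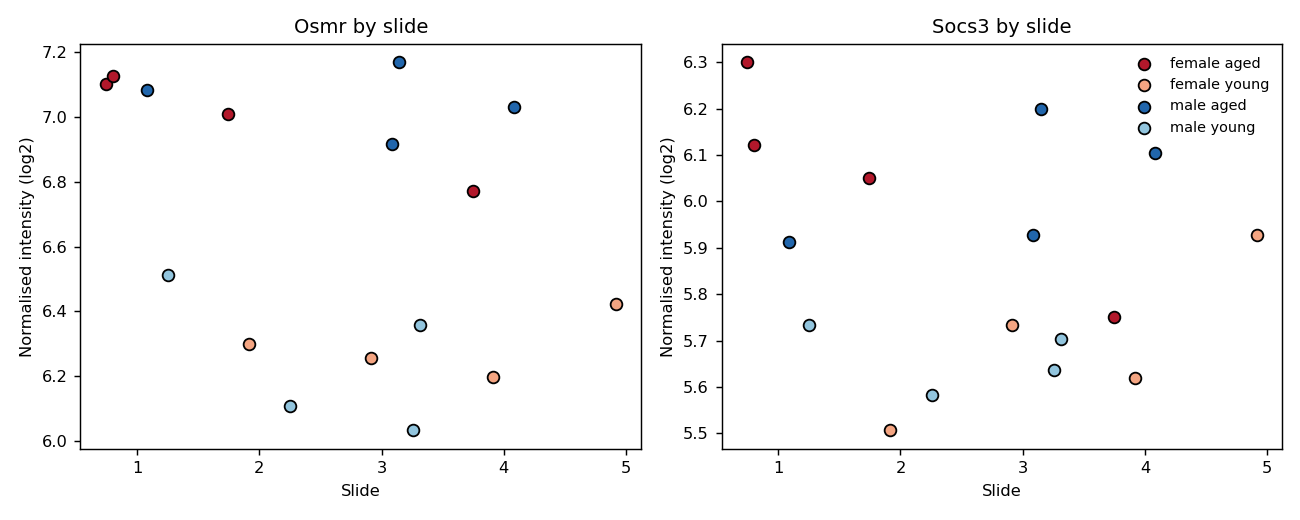
Log2 normalised intensity of Osmr (left) and Socs3 (right) on each array, placed by slide (horizontal axis, with small sideways shifts between groups). On slides 1 to 4 aged points lie above the young points of the same sex for Osmr, and slide 5 holds 1 young female array.

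Stat3, the transcription factor downstream of gp130, had 3 probes, all detected on every array, and none passed the threshold. ILMN_2698046 had levels of 9.07, 8.75, 9.34 and 9.12 in aged females, against 8.82, 8.48, 8.67 and 8.77 in young females. In males it had 8.98, 8.95, 8.89 and 9.24 in aged retina, against 8.93, 8.60, 8.73 and 8.79 in young retina. In both sexes 1 or more aged arrays fell within the young range. Its change was 0.38 in females (SE 0.12, limma adjusted p = 0.279), 0.25 in males (SE 0.12, limma adjusted p = 0.336) and 0.32 as the mean of both (SE 0.08, 95% interval 0.14 to 0.50, limma adjusted p = 0.0642). Within slides the difference was 0.52 and 0.45 in females (slides 2 and 4) and 0.05 and 0.16 in males (slides 1 and 3), the first resting on male aged 1 alone for the aged group. With the slide as a fixed block the mean of both was 0.34 (limma adjusted p = 0.0993), and with the slide as a random block it was 0.32 and passed (limma adjusted p = 0.0495). Over 10 alternatives other than leaving out an array, the mean of both ran from 0.31 to 0.36 and passed in 5, with limma adjusted p from 0.0181 to 0.115: with median scaling, with a variance trend and robust variances, with array weights, with the slide as a random block and with the replicate number as a block. It passed in 1 of 16 fits that left out an array.

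The second probe, ILMN_2589790, had levels of 8.33, 8.02, 8.38 and 7.90 in aged females, against 7.75, 7.73, 7.83 and 7.83 in young females. In males it had 7.95, 8.22, 8.20 and 8.29 in aged retina, against 8.05, 7.61, 8.11 and 7.96 in young retina. The female ages were apart and the male ages overlapped. It gave 0.37 in females (SE 0.12, limma adjusted p = 0.317), 0.24 in males (SE 0.12, limma adjusted p = 0.379) and 0.30 as the mean of both (limma adjusted p = 0.0876). The third probe, ILMN_3096144, had levels of 6.63, 6.30, 6.37 and 6.19 in aged females, against 5.81, 6.18, 6.04 and 6.11 in young females. In males it had 6.49, 6.25, 6.62 and 6.14 in aged retina, against 6.37, 6.31, 6.38 and 6.54 in young retina. Young females had the lowest mean of the 4 groups on this probe, and the male ages overlapped. It gave 0.34 in females (SE 0.12, limma adjusted p = 0.40) and -0.02 in males (SE 0.12, limma adjusted p = 0.951). The probes thus had similar estimates in females, where the ages did not overlap for ILMN_2589790 and ILMN_3096144 (2.36% of tested probes). In males ILMN_2698046 and ILMN_2589790 had similar estimates, 0.25 and 0.24, and ILMN_3096144 had -0.02. This difference between probes was not tested. For ILMN_3096144 the age change was greater in females by 0.36 (SE 0.16, unadjusted p = 0.0432, limma adjusted p = 0.52). At 3 months its level was 6.03 ± 0.16 in females and 6.40 ± 0.10 in males (SD, n = 4 each), a difference of -0.36 (limma unadjusted p = 0.00595, adjusted p = 0.155). The files used here do not say which Stat3 transcripts each probe reads.

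The promoters of the 2 called members, of Stat3 and of Gfap are shown because STAT3 acts on DNA through palindromic sites with the core TTCNNNGAA. RefSeq promoter windows of 300 bases (build GRCm38.p6) were found for all 10 genes, 16 windows in all, and the core was searched in them, its reverse complement being the same motif. It was found in 2 of the 16 windows, those of Socs3 and Gfap, and in 8.3% of all 32851 windows, and the tighter form TTCCNGGAA in 1, that of Gfap, and in 1.15% of all. The lines that follow give the 250 bases before the start of transcription, on the minus strand and written 5′ to 3′, at chr15:6874314-6874563 for Osmr, chr11:117969367-117969616 for Socs3 and chr11:100939541-100939790 for Stat3, and for Gfap a stretch of 29 bases around the start (chr11:102897184-102897212). Capitals mark the motif.
Osmr: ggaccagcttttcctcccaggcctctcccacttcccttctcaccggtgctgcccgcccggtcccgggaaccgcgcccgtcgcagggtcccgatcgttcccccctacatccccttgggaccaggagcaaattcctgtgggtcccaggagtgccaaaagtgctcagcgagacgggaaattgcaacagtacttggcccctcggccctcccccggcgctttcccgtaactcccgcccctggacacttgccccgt
Socs3: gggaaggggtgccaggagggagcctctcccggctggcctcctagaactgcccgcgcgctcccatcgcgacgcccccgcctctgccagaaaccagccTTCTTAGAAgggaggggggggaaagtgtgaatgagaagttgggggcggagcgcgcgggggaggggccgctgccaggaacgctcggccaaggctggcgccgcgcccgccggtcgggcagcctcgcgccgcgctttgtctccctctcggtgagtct
Stat3: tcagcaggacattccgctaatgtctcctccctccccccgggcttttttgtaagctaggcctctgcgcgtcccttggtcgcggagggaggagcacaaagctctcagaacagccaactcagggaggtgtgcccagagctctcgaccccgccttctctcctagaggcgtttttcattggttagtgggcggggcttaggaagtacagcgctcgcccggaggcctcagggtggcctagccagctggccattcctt
Gfap: atgggggtgcTTCCAGGAAgtcaggggca
The Socs3 copy begins 154 bases before the start and the Gfap copy 2 bases before it. Socs3 holds a copy and was called, and Osmr holds none in this window and was called. Gfap holds the tighter form, and its probe was too near background to show a change or the lack of one. A match is a description of letters and does not show binding.

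Il6st, the gene of the shared chain gp130, had levels of 6.93, 6.70, 7.53 and 7.08 in aged females, against 7.19, 7.03, 7.10 and 7.13 in young females. It had 7.01, 7.18, 6.86 and 7.15 in aged males, against 7.17, 7.15, 7.19 and 7.13 in young males. Aged arrays scattered on both sides of the young ones, with an SD of 0.35 in aged females against 0.07 in young females and 0.15 in aged males against 0.03 in young males; this difference in spread was not tested. The mean of both sexes was -0.08 (SE 0.09, 95% interval -0.27 to 0.11, limma adjusted p = 0.83).

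Lifr, which pairs with gp130 to bind LIF, had 3 probes of unequal detection. The brightest, ILMN_2829008, was detected on all 16 arrays, with 5.51 ± 0.14 in aged females and 5.47 ± 0.18 in young females, and 5.24 ± 0.12 in aged males and 5.44 ± 0.05 in young males (SD, n = 4 each). Its change was 0.05 in females (limma adjusted p = 0.962) and -0.20 in males (limma unadjusted p = 0.0514, adjusted p = 0.347). At 24 months its level in females exceeded that in males by 0.27 (SE 0.09, limma unadjusted p = 0.011, adjusted p = 0.22). ILMN_1242960, detected on 15 arrays, and ILMN_2829015, detected on 6, changed by -0.03 (95% interval -0.18 to 0.12) and 0.05 (95% interval -0.10 to 0.19) as the mean of both sexes. None of the Lifr probes passed in any comparison.

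Cntfr encodes the chain that binds CNTF, and its probe was detected on 4 of the 16 arrays, 1 aged female and 3 young female. It passed the filter through the young females, whose levels were 4.93, 4.64, 4.39 and 4.64, against 4.52, 4.54, 4.41 and 4.45 in aged females. Levels were 4.35 to 4.43 in aged males and 4.26 to 4.52 in young males, not well above background on any male array. Because the young females carried the probe through the filter, its levels are given as a description, with no test.

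Among the ligands, Cntf was measured by 1 of its 2 probes. ILMN_2757889 had 6.47 ± 0.14 in aged females and 6.46 ± 0.19 in young females, and 6.48 ± 0.12 in aged males and 6.46 ± 0.11 in young males (SD, n = 4 each). Over all arrays it stayed between 6.18 and 6.66. Its change as the mean of both sexes was 0.02, with a 95% interval of -0.13 to 0.17 (limma adjusted p = 0.962). Within a sex the interval was wider, -0.19 to 0.23 in females and -0.19 to 0.23 in males. The second probe, ILMN_2602921, was detected on no array and had levels of 4.20 to 4.36.

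Lif and Fgf2 could not be compared between ages, since none of their probes rose above background. The 3 Lif probes had levels of 4.18 to 4.50 on the 16 arrays, and their lowest detection p-value was 0.0865. The Fgf2 probe had levels of 4.16 to 4.34, deposited signals of -8.15 to 1.57 units and a lowest detection p-value of 0.291. The lowest level of a detected probe was 4.53 to 4.67, depending on the array. In bulk retina such a reading does not tell an absent transcript from one made by few cells or one that the probe binds poorly.

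Gfap, the filament gene of reactive glia, sat at the limit of detection in every group. Its probe (ILMN_1214715) was detected on 7 of 16 arrays, 1 aged female and 2 in each other group, with deposited signals of 1.87 to 12.1 units. Levels were 4.50, 4.68, 4.49 and 4.64 in aged females, against 4.70, 4.38, 4.35 and 4.67 in young females. They were 4.67, 4.41, 4.52 and 4.63 in aged males, against 4.58, 4.70, 4.51 and 4.63 in young males. All groups thus straddled the lowest detected level, and none stood apart. The change was 0.05 in females (95% interval -0.14 to 0.25, limma adjusted p = 0.959) and -0.05 in males (limma adjusted p = 0.858). As the mean of both sexes it was 0.00 (95% interval -0.14 to 0.14, limma adjusted p = 0.994). So close to background the interval describes the brightness of this probe, and a change in Gfap RNA below its reach was not detectable. As for Lif and Fgf2, the reading does not tell a rare transcript from one that the probe binds poorly.

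**Figure D3:**
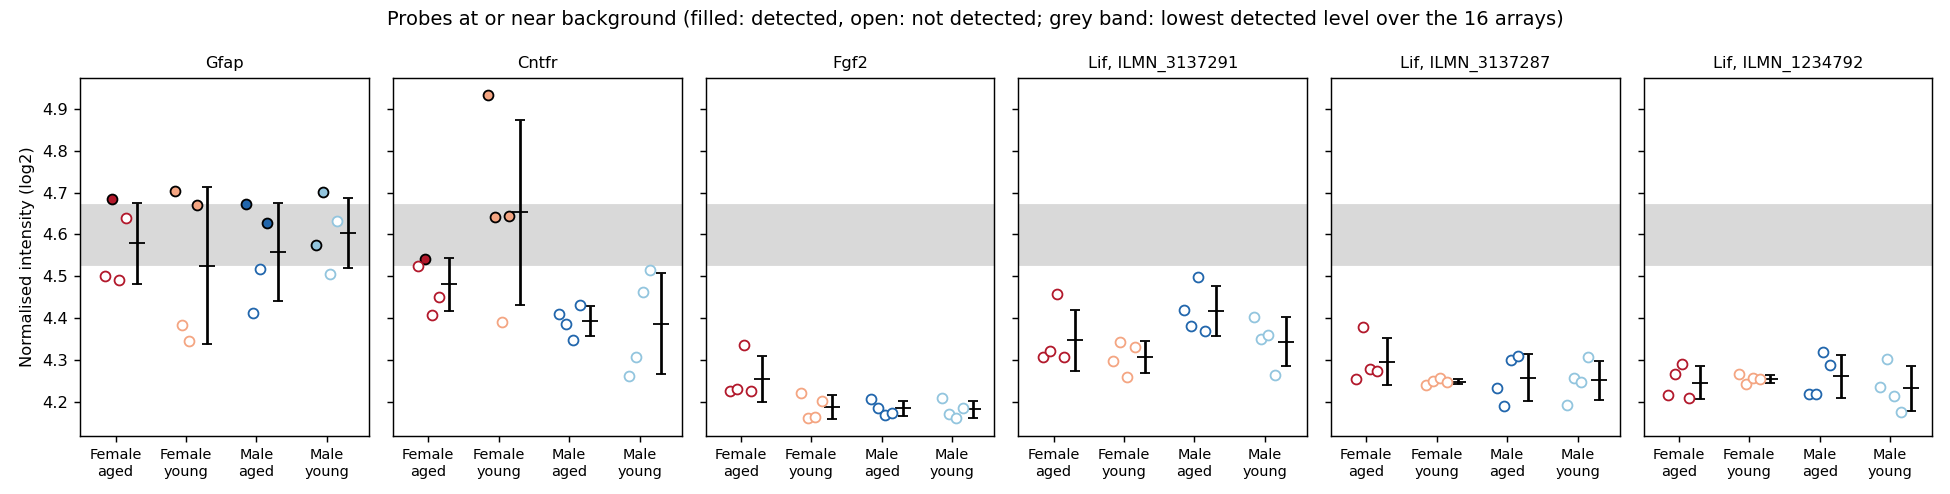
Log2 normalised intensity of the probes of Gfap, Cntfr, Fgf2 and Lif on each array, by group, with mean and SD of 4 arrays; filled points were detected and open points were not, and the grey band spans the lowest detected level of the 16 arrays, 4.53 to 4.67. Gfap points lie in and around the band in all groups, and all Fgf2 and Lif points lie below it.

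**Figure D4:**
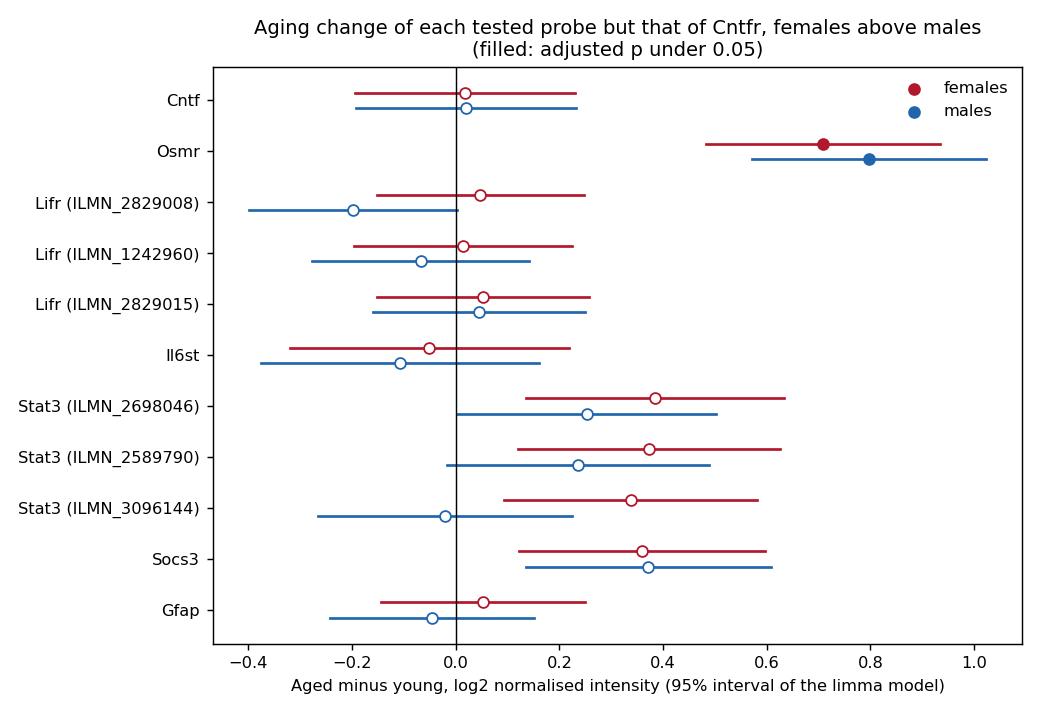
Aged minus young difference in log2 intensity (horizontal axis) of each tested probe but that of Cntfr, with the 95% interval of limma's model, females above males; filled points have an adjusted p under 0.05. Osmr is the member called in each sex, at 0.71 and 0.80, and Cntfr is left out because it was detected on no male array and passed the filter through the young females.

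Neither the sex comparisons nor the interaction gave a called member. At 3 months 0 of 12 tested member probes passed (background 0.393%), with an unadjusted p under 0.05 for the Stat3 probe ILMN_3096144; Cntfr is among the 12 but is not read here, since young females carried it through the filter. At 24 months 0 of 12 passed (background 0.686%), with an unadjusted p under 0.05 for the Lifr probe ILMN_2829008. For the interaction 0 of 15016 probes passed in limma, with 1402 at an unadjusted p under 0.05, and each alternative fit of that comparison also called 0.

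Other genes of the pathway and of glial stress, called other pathway genes below, came from 7 lists. These held 94 genes, of which 67 had a tested probe. The lists were written with earlier results of these data known, so counts set beside the background describe these genes and are no test. Values of a gene are those of its brightest tested probe. As the mean of both sexes 6 rose and 1 fell (background over genes 1.61% higher and 0.526% lower), and their median change was 0.05 against -0.01 for all 11025 genes. In females 4 rose (background 0.617%) and 0 fell, and in males 1 rose (background 0.871%) and 0 fell, with 0.03 and 0.06 as the median changes. The calls lay in the lists of STAT3 targets and of glial stress, and 0 members of the ligand, receptor, kinase, inhibitor and FGF lists passed.

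Of the other interleukin-6 family ligands 3 of 10 were tested and 0 passed, with a median change of 0.08 as the mean of both sexes. Osm, the gene of oncostatin M itself, was detected on at most 1 array by either of its probes, and Il6 on 0. The measured ones were Il11 (-0.15, limma adjusted p = 0.403), Ctf1, the gene of cardiotrophin 1 (0.08, limma adjusted p = 0.835), and Ebi3 (0.10, limma adjusted p = 0.768). Osm was thus at or near background while the receptor gene Osmr was measured on every array. Il31, another ligand gene of this list, had 0 probes and was not measured. Of the other receptor genes 3 of 4 were tested and 0 passed, with a median of -0.05, and Il6ra was detected on no array.

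Of the Janus kinases and other STATs 8 of 10 were tested and 0 passed, with a median of 0.07. Jak1, a kinase that sits on gp130, had a log2 difference of 0.27 as the mean of both sexes (SE 0.14, limma adjusted p = 0.522). It was 0.04 in females and 0.50 in males, neither past the threshold. Of the inhibitors other than Socs3, 11 of 15 were tested and 0 passed, with a median of 0.01. Those with the smallest p were Cish (-0.22, limma adjusted p = 0.239), Pias3 (-0.16, limma adjusted p = 0.319) and Ptpn6 (0.18, limma adjusted p = 0.352), while Socs1 was detected on no array. Of the FGF ligands and receptors 8 of 9 were tested and 0 passed, with a median of 0.04.

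Of the STAT3 target and acute phase genes 16 of 22 were tested and 2 rose as the mean of both sexes, with a list median of 0.05. Lcn2, which encodes the iron-binding protein lipocalin 2, had 7.45 ± 0.61 in aged females and 6.39 ± 0.16 in young females, and 7.07 ± 0.37 in aged males and 6.49 ± 0.18 in young males (SD, n = 4 each). Its change as the mean of both sexes was 0.82 (SE 0.16, limma adjusted p = 0.011). Icam1, an adhesion molecule gene, had 5.68 ± 0.23 in aged females and 5.16 ± 0.32 in young females, and 5.60 ± 0.14 in aged males and 5.10 ± 0.37 in young males (SD, n = 4 each). Its change was 0.51 (SE 0.12, limma adjusted p = 0.0397). The Icam1 call ended with the slide as a fixed block (0.49, limma adjusted p = 0.14) and in 10 of 16 fits that left out 1 array. Serpina3n, an acute phase gene singled out after its values were seen, had changes of 0.99 in females and -0.86 in males, neither past the threshold.

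Of the glial stress and photoreceptor injury genes 18 of 24 were tested, 4 rose and 1 fell as the mean of both sexes, and the list median was 0.15. Edn2, the gene of endothelin 2, which stressed photoreceptors make, changed by 1.93 (SE 0.23, limma adjusted p = 0.000109). Gbp2, an interferon-induced guanylate-binding protein, changed by 0.80 (SE 0.12, limma adjusted p = 0.000742). Atf3, a stress-induced transcription factor gene, changed by 0.47 (SE 0.07, limma adjusted p = 0.000776), and the complement gene C4b by 0.94 (SE 0.20, limma adjusted p = 0.019). The C4b call ended without the detection filter (limma adjusted p = 0.0683) and with a variance trend (limma adjusted p = 0.0612). Nes, which encodes the filament protein nestin, fell by 0.32 on the brighter of its probes (SE 0.07, limma adjusted p = 0.0174), while the dimmer probe gave -0.06 (limma adjusted p = 0.836). The genes that rose are known from stressed photoreceptors, interferon responses, complement and general stress. The brighter Nes probe had means of 4.71 in aged females and 4.71 in aged males, against 5.09 and 4.98 in young females and males. The aged means lay close to the lowest detected level, 4.53 to 4.67, and the probe was detected on 3 of 4 arrays in each aged group. Of the filament genes in this list, Nes thus fell on 1 probe that neared background in aged retina. Vim did not pass (-0.34 in females and 0.44 in males). Gfap is not in this list, and its probe was too near background to be read either way.

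**Figure D5:**
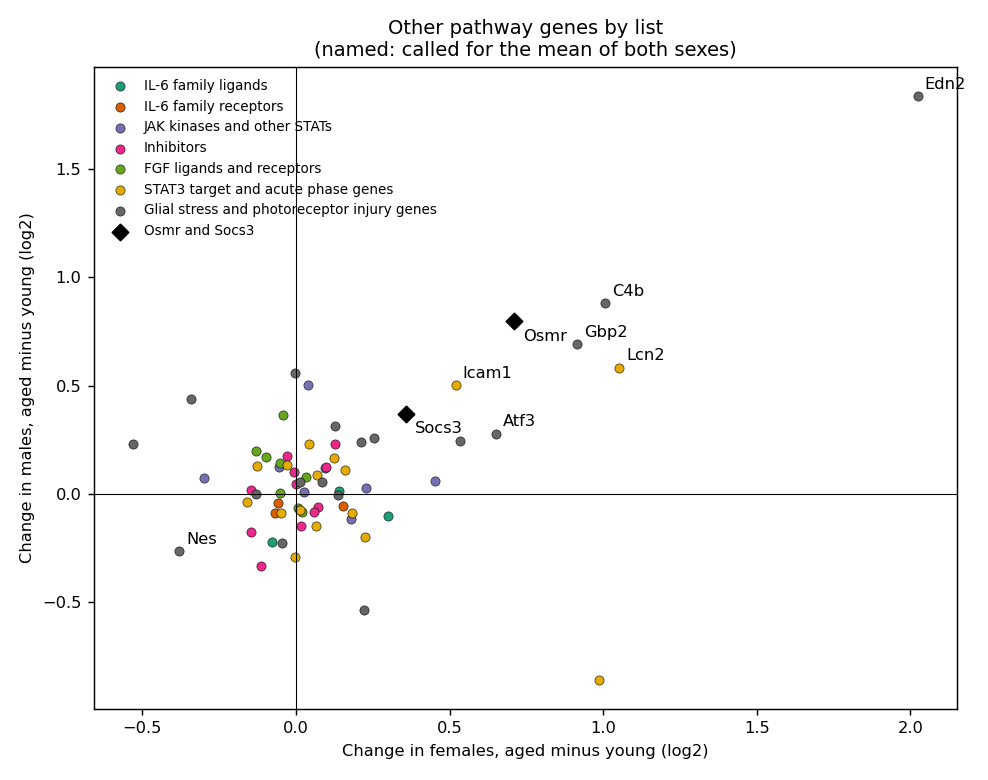
Change with age in females (horizontal axis) against that in males (vertical axis), log2, for the other pathway genes with a tested probe, coloured by list, and for Osmr and Socs3 (black). Named genes passed the threshold as the mean of both sexes; Edn2 lies farthest out at 2.02 and 1.84, and most unnamed genes lie near 0.

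Markers of other cell types moved with age in the same arrays. All 11 markers of microglia and macrophages lay above 0 as the mean of both sexes, with a median of 0.45. Of these 7 rose (background 1.61%), among them C1qb (0.91), Ly86 (0.66) and Cx3cr1 (0.36). However, 1 of the 11 was detected on no young female array and 2 on no young male array, against 0 in either aged group. A marker that passed the filter mainly through aged arrays tends to lie above 0, so the filter in part set that count. The summed intensity of the 11 was 566 to 816 in aged females and 425 to 494 in young females. In males it was 630 to 812 in aged retina and 445 to 493 in young retina, so the ages did not overlap in either sex. All 6 tested markers of pigment epithelium, the cell layer behind the photoreceptors, rose as the mean of both sexes (background 1.61%). In males 5 rose (background 0.871%) and in females 0 (background 0.617%). Lrat, 1 of the 6, was detected on 3 aged female, 4 aged male, 0 young female and 1 young male arrays. It passed the filter through the aged arrays, so its rise is a description only. Sums of the 6 were 1258 to 3001 in aged females and 433 to 1794 in young females. In males they were 5262 to 8149 in aged retina and 854 to 2966 in young retina. The part of microglia and pigment epithelium in the changes of Osmr, Socs3, Lcn2, Icam1, Gbp2 and C4b was not tested.

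Markers of Müller glia gave no such shift. Of 12 markers 11 were tested and 0 passed, with a median of 0.05, and their summed intensity was 17600 to 20300 in aged females and 17780 to 20550 in young females, and 17310 to 19900 in aged males and 17370 to 18970 in young males. Of the astrocyte markers 6 of 8 were tested and 0 passed, and Pax2 and S100b did not pass the filter for detection. Their median was 0.02, with 3 above 0 and 3 below. Gja1 lay lowest, at -0.74 as the mean of both sexes, -0.86 in females and -0.61 in males. The summed intensity was 5263 to 6524 in aged females and 5761 to 7714 in young females. In males it was 5917 to 6711 in aged retina and 6433 to 8511 in young retina. All 7 rod markers were tested and 0 passed, with a median of -0.05. Blood markers lay above 0 in 3 of 3 tested and 0 passed, with sums of 1144 to 6200 in aged females and 779 to 1384 in young females, and 620 to 4479 in aged males and 1003 to 2812 in young males.

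Among the genes whose level over the 16 arrays was most like that of Osmr were Rdh9, of the retinol dehydrogenase family (Pearson r = 0.98), Ush1c (0.96), Eif4e3 (0.95) and the chemokine gene Ccl12 (0.94). With the group means removed, r was 0.82 for Rdh9, 0.74 for Ush1c, 0.48 for Eif4e3 and 0.70 for Ccl12. For Socs3 they were Ccl12 (0.92), Rfx2 (0.91), Scara3 (0.89), Osmr (0.88) and C1qb (0.88), with 0.81, 0.79, 0.70, 0.67 and 0.65 once group means were removed. Osmr and Socs3 thus varied together over arrays of the same group too, where points share a library, a slide and the make-up of 1 dissected retina sample. The correlations describe these 16 arrays, were picked as the highest among 11025 genes, and have no test.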

How the data were processed

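The authors deposited a table with 1 background-subtracted intensity per probe and array (20.7% to 24.2% of values lie below 0), exported from array software per the file headers, with a detection p-value per intensity whose steps stand for 798 negative controls. A second deposited table holds the same intensity values multiplied by 1 factor per array (0.821 to 1.25). Neither the software, its version nor the genome build of the annotation is given in the sources used here.

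In R 4.3.3, the neqc function of limma 3.58.1 normalised the intensities (controls inferred from detection p-values, offset 16, quantile, log2). Probes detected (p-value under 0.05) on at least 4 of 16 arrays were tested in 1 limma model (lmFit, eBayes) fitting 4 group means (12 residual degrees of freedom). Contrasts were aging in each sex, aging as the mean of both, sex at 3 and at 24 months and the interaction of both factors. Tests were two-sided and adjusted by Benjamini-Hochberg within each contrast. Intervals are the model's. A table of RefSeq genes gave a current symbol for 24584 probes. statmod 1.5.0 estimated the correlation within slides (0.13).

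Members were matched by gene name in any case (17 of 17). All member genes are named, and from the lists every called gene and up to 4 per list with the smallest p. For each called member, the 5 most correlated genes are named. Some genes that these rules pick are not reported here. Members, lists and comparisons were chosen with earlier results of these data known. As alternatives, the background correction was left out, median scaling or the table scaled by the authors was used, and the filter was dropped or tightened. Variances were also fitted with a trend and robustly, arrays were weighted, slide or replicate number entered as a block, the fit was limited to 2 groups, and each array was left out. Their use for the list genes was added after seeing the data. Scripts were tested on simulated data. Replicate numbers did not pair the arrays: over 24 same-numbered pairs, deviations from group means correlated at a median of -0.01, with 4 over 0.1.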

Additional observations from a re-analysis of the deposited data

Results flagged for a closer look

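A gap between 1 array and the others of its group was found for 3 probes, each detected on no array, so the values describe background. The Lif probe ILMN_3137291 read 4.46 on female aged 3, against 4.31 to 4.32 on the other aged females. The Fgf2 probe read 4.34 on the same array, against 4.23 on the others. The Cntf probe ILMN_2602921 read 4.26 on female young 1, against 4.20 to 4.21 on the other young females. Chance flags about 1 in 20 groups, and 4 groups of each of the 17 probes were examined.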

How the results depend on the processing

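Osmr kept its direction and its call in females, in males and as the mean of both sexes under every alternative that gave a test. Leaving out each array gave 0.67 to 0.79 in females, 0.72 to 0.88 in males and 0.72 to 0.80 for the mean. The count of called member probes for the mean of both sexes ran from 1 to 3 over those fits, 1 without male aged 3, and from 2 to 3 under the other alternatives, the third being a Stat3 probe, ILMN_2698046 or, without 1 array, ILMN_2589790. With the replicate number as a block, Socs3 kept 0.37 at adjusted p = 0.0569 and ILMN_2698046 passed at adjusted p = 0.0377; other member calls did not change. The cause of either move was not tested, and the replicate numbers did not pair the arrays.

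Changes that were not called switched sign around 0. Gfap as the mean of both sexes was -0.0026 with median scaling, and its sex difference at 24 months was -0.055 with the slide as a fixed block and -0.006 as a random block. Without single arrays Gfap ran from -0.0073 to 0.11 in females, -0.085 to 0.0021 in males, -0.027 to 0.032 for the mean and -0.028 to 0.059 for sex at 24 months. Osmr ran from -0.034 to 0.13 for sex at 3 months and -0.092 to 0.030 at 24 months. The cause was not tested, and Gfap is limited by its signal over background.

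Calls of other pathway genes ran from 5 to 8 for the mean of both sexes, 2 to 5 in females (2 without female aged 3, with a slide block, or with only the 2 groups compared) and 0 to 2 in males (0 without male aged 3, which ended that of Edn2, and 2 without female young 1, 3 or 4). Lcn2 in females lost its call in 13 of 16 fits without 1 array. A fit of only the 2 groups compared gives no mean of sexes and no interaction. Over all probes, calls ran from 36 to 103 in females (95 as reported), from 56 to 412 in males (149), from 24 to 237 for sex at 3 months (59) and from 26 to 281 at 24 months (103), with array weights highest in males.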
